A study of Mus musculus with 12 samples.

Results

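Mural cells are the contractile and supporting cells that wrap blood vessels: smooth muscle cells around arteries and pericytes around capillaries. Smooth muscle is recognised by an actin, a myosin and proteins that bind them, which serum response factor and its partner myocardin switch on through a DNA element called the CArG box. Pericytes are recruited to brain capillaries by platelet-derived growth factor from endothelial cells (ECs), which acts on a receptor of the mural cell, and in the brain they support the blood-brain barrier. The 9 genes described here are usual markers of these cells: Acta2, Actg2, Tagln, Cnn1, Myh11 and Des for the contractile apparatus and the filaments attached to it, and Pdgfrb, Cspg4 and Rgs5 for pericytes. They were taken by symbol from the table of normalized counts, where all 9 were found among 21611 genes.

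The table came from mRNA-seq of primary cortical ECs of wild-type C57BL/6J mice in 12 libraries. There were 3 libraries of ECs from embryos at E13.5 (days after conception) and 3 of adult ECs labelled control (adult control). A further 2 were of adult ECs given the Wnt ligand Wnt3a at 200 nM by the labels and 200 ng/ml by the study's methods. The last 4 were of adult ECs given 10 µM MS-275, an inhibitor of class I histone deacetylases (HDACs). Each treatment lasted 48 h by the methods. The adult mice were males of 2 to 3 months by the methods, and 3 to 4 months elsewhere in the paper. All cells were grown on collagen and used at the second passage, so that every value is from cultured cells. One litter, pooled, made 1 biological replicate, and for the adults no source says how many mice made 1. The libraries held 20804279 to 33149580 reads on genes. A normalized count is the number of reads on a gene divided by a factor for the depth of its library.

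The labels call all 12 libraries endothelial. Of 14 endothelial genes, all 14 were lower in the E13.5 libraries than in adult controls, while 19.5% of all genes tested were. Their summed normalized count was 1750 to 2252 in the E13.5 libraries, 282835 to 383693 in adult controls, 238730 to 282632 after Wnt3a and 21765 to 39373 after MS-275. Pecam1 encodes CD31, which with isolectin B4 was among the markers by which the cultures were judged over 90% pure. It had 59.4 ± 12.9 (SD, n = 3) in the E13.5 libraries and 71699 ± 11642 (n = 3) in adult controls. The E13.5 libraries thus went against their label at this gene. A figure legend of the paper also gives Cldn5, Pecam and Cdh5 as lower in E13.5 ECs. Sox2, a neural progenitor factor, had 4538 ± 432 (n = 3) in the E13.5 libraries, while adult libraries lacked reads of it. The E13.5 group is therefore named below by its label only. In a bulk library, fewer cells of a type and less RNA per cell cannot be told apart.

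Within groups some libraries lay close together. In E13.5, replicates 2 and 3 were alike and replicate 1 stood apart. In adult controls, replicates 1 and 2 were alike and replicate 3 stood apart. After MS-275, replicates 2 and 4 lay together and replicates 1 and 3 lay together. The splits lined up across the adult groups: over all genes, the deviations from the group mean of adult control replicates 1 and 2 went with those of MS-275 replicates 1 and 3 and of Wnt3a replicate 1 (r from 0.226 to 0.442), and those of adult control replicate 3 with MS-275 replicates 2 and 4 and with Wnt3a replicate 2 (r from 0.285 to 0.532). Deviations within a group sum to 0, so these values are not independent of each other. No source gives a reason for the splits. With the 2 sets of libraries as a block, added after seeing the data, 5 members and 9373 genes passed for MS-275 against adult control, 4 members and 8168 genes for MS-275 against Wnt3a, and 0 of all genes for Wnt3a against adult control. All of these libraries differed from each other by more than sampling noise, and each was counted as 1 sample.

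RefSeq (GRCm38.p6, the build of the files) had a promoter for 5 of the 9 genes, and 3 of these are shown: Acta2, the most abundant of the 9 in E13.5 libraries and low in every adult group, and Cnn1 and Des, which were higher after MS-275. Each is 300 bases from 250 before the start of transcription to 50 after it, on the gene's own strand. Entries were found for Acta2, Cnn1, Cspg4, Des and Rgs5. The intervals are chr19:34255324-34255623 on the minus strand for Acta2, chr9:22099003-22099302 on the plus strand for Cnn1 and chr1:75360042-75360341 on the plus strand for Des. Capitals mark a CArG-like match, a CArG box in which 1 of the 6 central bases is G or C instead of A or T.
Acta2: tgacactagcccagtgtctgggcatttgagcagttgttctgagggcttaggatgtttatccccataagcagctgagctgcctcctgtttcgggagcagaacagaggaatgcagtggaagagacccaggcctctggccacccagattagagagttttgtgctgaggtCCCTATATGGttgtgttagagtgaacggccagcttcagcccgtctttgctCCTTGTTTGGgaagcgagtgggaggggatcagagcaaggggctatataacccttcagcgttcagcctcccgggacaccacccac
Cnn1: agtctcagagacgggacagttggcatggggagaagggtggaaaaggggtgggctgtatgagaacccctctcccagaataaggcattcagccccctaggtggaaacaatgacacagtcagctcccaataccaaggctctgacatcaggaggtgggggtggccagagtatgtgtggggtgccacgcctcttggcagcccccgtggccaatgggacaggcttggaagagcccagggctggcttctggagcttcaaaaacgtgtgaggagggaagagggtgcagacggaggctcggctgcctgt
Des: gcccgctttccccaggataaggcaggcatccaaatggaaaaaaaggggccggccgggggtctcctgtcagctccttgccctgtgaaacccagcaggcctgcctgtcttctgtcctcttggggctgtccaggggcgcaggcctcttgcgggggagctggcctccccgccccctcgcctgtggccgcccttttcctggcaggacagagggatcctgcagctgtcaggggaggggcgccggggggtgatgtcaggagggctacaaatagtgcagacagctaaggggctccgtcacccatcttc
A full CArG box, searched on both strands, was in none of the 5 promoters and in 1.63% of the 32851 promoters of the table. Acta2 held 2 CArG-like matches, which began 84 and 34 bases before the start, and the other 4 members held none. A CArG box or CArG-like match was in 9.98% of all promoters. Of the 5, Des was the richest in G and C, at 65.3%, and Rgs5 the poorest, at 52.3%, beside a median of 52.7% over the table. Cspg4 held 17 CpG dinucleotides in its window and Des 11, while Acta2, Cnn1 and Rgs5 held 6 each. These matches describe letters in a window and say nothing of binding.

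All 9 genes were highest, or shared the highest level, in E13.5 or MS-275 libraries, and every one was low in adult controls. They did not move as 1 group. In E13.5 libraries their level, per kb of exon and summed, was 17346 ± 4939.7 (n = 3), and Acta2 made up 63.9% of it and Tagln 34.2%. In adult controls the sum was 43.5 ± 2.09 (n = 3), with 74.6% from Tagln and 12.6% from Acta2. After Wnt3a it was 41.0 ± 8.35 (n = 2), with 65.3% from Tagln, 17.9% from Acta2 and 10.6% from Pdgfrb. After MS-275 it was 213 ± 32.2 (n = 4), with 51.3% from Des, 32.3% from Tagln and 7.20% from Myh11. Des, with no read in any adult control or Wnt3a library, thus supplied the largest share after MS-275, and Acta2 supplied 2.37%.

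**Figure D1:**
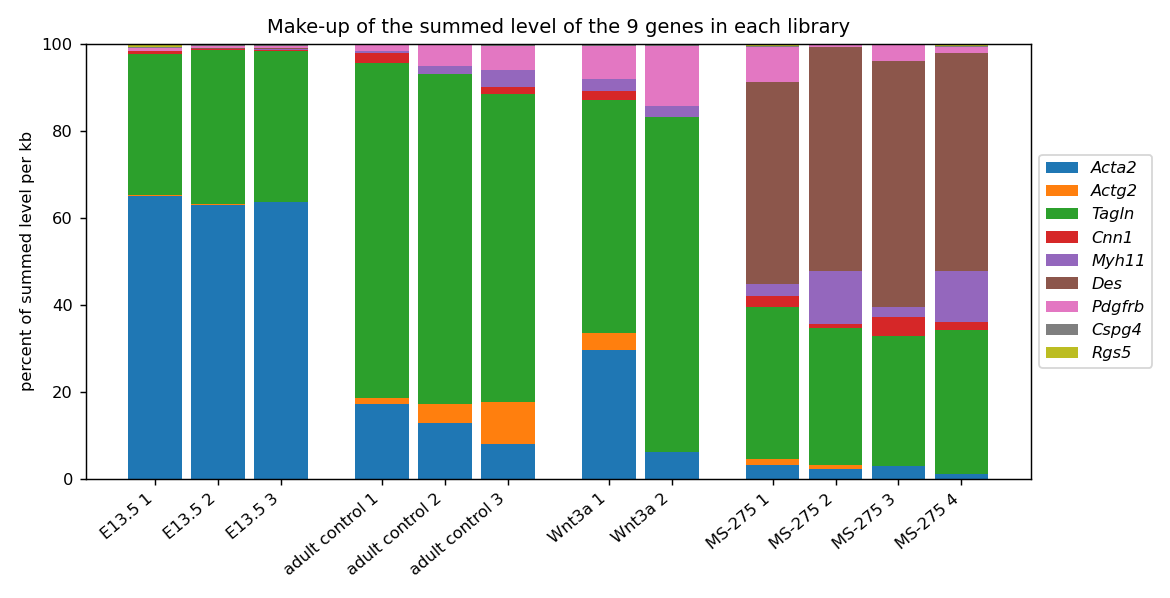
Each bar is 1 library and shows, in percent, how the summed level per kb of exon (normalized count divided by exon length) of the 9 genes divides among them. Acta2 and Tagln fill the E13.5 bars, Tagln fills most of each adult control and Wnt3a bar, and Des fills 46.5% to 56.7% of each MS-275 bar.

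Between adult control and E13.5 libraries, all 9 genes were lower in the adult at an adjusted p under 0.05 from limma, and in none did the libraries of the 2 groups overlap. Of all 15452 genes tested, 32.8% were lower in the adult and 61.9% did not overlap, and 52.3% passed in either direction. The median log2 fold change was -6.40 over the members and -0.20 over all genes tested. All 9 passed the filter on low values, of which Actg2, Cspg4 and Rgs5 passed it only through the E13.5 libraries. Such genes could hardly have been called higher in the adult. With quantile normalization Actg2 and Myh11 no longer passed the test (adjusted p = 0.639 and 0.303).

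Of the smooth muscle actins, Acta2 had the largest log2 fold change of the 9 genes on the scale of log2(value + 1), and Actg2 the smallest. That scale understates the change of low genes, and by the ratio of depth-scaled reads Myh11 differed least (13.2-fold), beside 15.6-fold for Actg2. Acta2, the actin of vascular smooth muscle (chr19:34241090-34255590, minus strand), had normalized counts of 32866, 20577 and 19743 in E13.5 replicates 1 to 3 and 15.6, 12.2 and 7.89 in adult controls. Its adult level was 0.0488% of that in E13.5 libraries, with a log2 fold change of -10.89 (SE 0.59, adjusted p = 7.55e-08). Actg2, the actin of visceral smooth muscle (chr6:83512905-83536265, minus strand), had 108, 26.9 and 21.0 in E13.5 and 0.867, 3.05 and 6.90 in adult controls, with a log2 fold change of -3.38 (SE 0.90, adjusted p = 0.00842). Over their coding sequences Actg2 and Acta2 share 84.4% of 1131 aligned bases, with a longest identical run of 29 bases. Whether reads on 1 were taken from the other was not tested. Actg2 was 0.106% to 0.329% of Acta2 in the E13.5 libraries. The cytoplasmic actins of all cells, Actb and Actg1, lay at 81520.4 ± 15943 and 70288 ± 14550 (n = 3) in E13.5 and at 76226 ± 16455 and 75848 ± 5656 (n = 3) in adult controls, and neither passed the test (adjusted p = 0.704 and 0.686).

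Of the proteins that bind smooth muscle actin, Tagln was next to Acta2 in level per kb, and Cnn1 was far below it. Tagln, which encodes transgelin or SM22, an actin-binding protein (chr9:45929619-45936058, minus strand), had 14837, 10461 and 9755 in E13.5 and 63.3, 66.1 and 64.1 in adult controls, a log2 fold change of -7.45 (SE 0.20, adjusted p = 2.26e-09). The adult libraries agreed to within 1.42 (SD), a smaller relative spread than that of any other member with reads in that group. Tagln overlaps Pcsk7, a gene on the other strand, by 108 bases, and no source says whether strand was used in counting. Pcsk7 had 670 ± 50.6 (n = 3) in E13.5 and 843 ± 199 (n = 3) in adult controls, so what part of the low adult Tagln level are reads of Pcsk7 was not tested. Cnn1, which encodes calponin, a regulator of smooth muscle contraction (chr9:22099216-22109630, plus strand), had 408, 108 and 113 in E13.5 and 2.60, 0 and 1.97 in adult controls, a log2 fold change of -6.28 (SE 0.79, adjusted p = 4.74e-05). Of the relatives of these 2 genes that other cells use, Cnn2 and Cnn3 were also lower in adult controls and Tagln2 did not pass: Cnn3 had a log2 fold change of -1.39 (adjusted p = 4.99e-06) and Cnn2 of -1.77 (adjusted p = 8.26e-05), and Tagln2 of -0.68 (adjusted p = 0.162). These sizes were not tested against each other.

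The smooth muscle myosin and the muscle intermediate filament were far lower in level than the actin in E13.5 libraries. Myh11, the smooth muscle myosin heavy chain (chr16:14194535-14291372, minus strand), had 141, 66.8 and 63.0 in E13.5 and 1.73, 6.10 and 13.8 in adult controls, a log2 fold change of -3.69 (SE 0.81, adjusted p = 0.00264). Des, which encodes desmin (chr1:75360329-75368579, plus strand), had 41.3, 118 and 119 in E13.5 and no read in the 3 adult controls. Set against the 3 reads that a count of 0 allows over the group, the mean of Des was at least 97.5-fold higher in E13.5 (adjusted p = 4.40e-07). The limit depends on the depth of the controls, and without adult control replicate 1 it was 61.8-fold for Des.

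The pericyte genes showed the same direction. Pdgfrb, the receptor through which platelet-derived growth factor recruits pericytes (chr18:61045150-61085061, plus strand), had 698, 362 and 347 in E13.5 libraries against 3.47, 12.2 and 13.8 in adult controls. Cspg4, which encodes the NG2 proteoglycan of pericytes and of oligodendrocyte precursors (chr9:56865033-56899870, plus strand), had 514, 798 and 799 in E13.5 and 0, 0 and 1.97 in adult controls, where the latter is 2 reads. Their ratio was 1095, with a 95% counting interval of 303 to 9044, and the adjusted p was 9.14e-08. Rgs5, a regulator of G protein signaling that marks pericytes (chr1:169655501-169695813, plus strand), had 846, 39.9 and 49.6 in E13.5 and no read in adult controls (adjusted p = 1.78e-04). Its mean was at least 328-fold higher in E13.5, a limit that rests on E13.5 replicate 1: without it the limit for Rgs5 was 47.0-fold, and without adult control replicate 1 it was 208-fold.

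**Figure D2:**
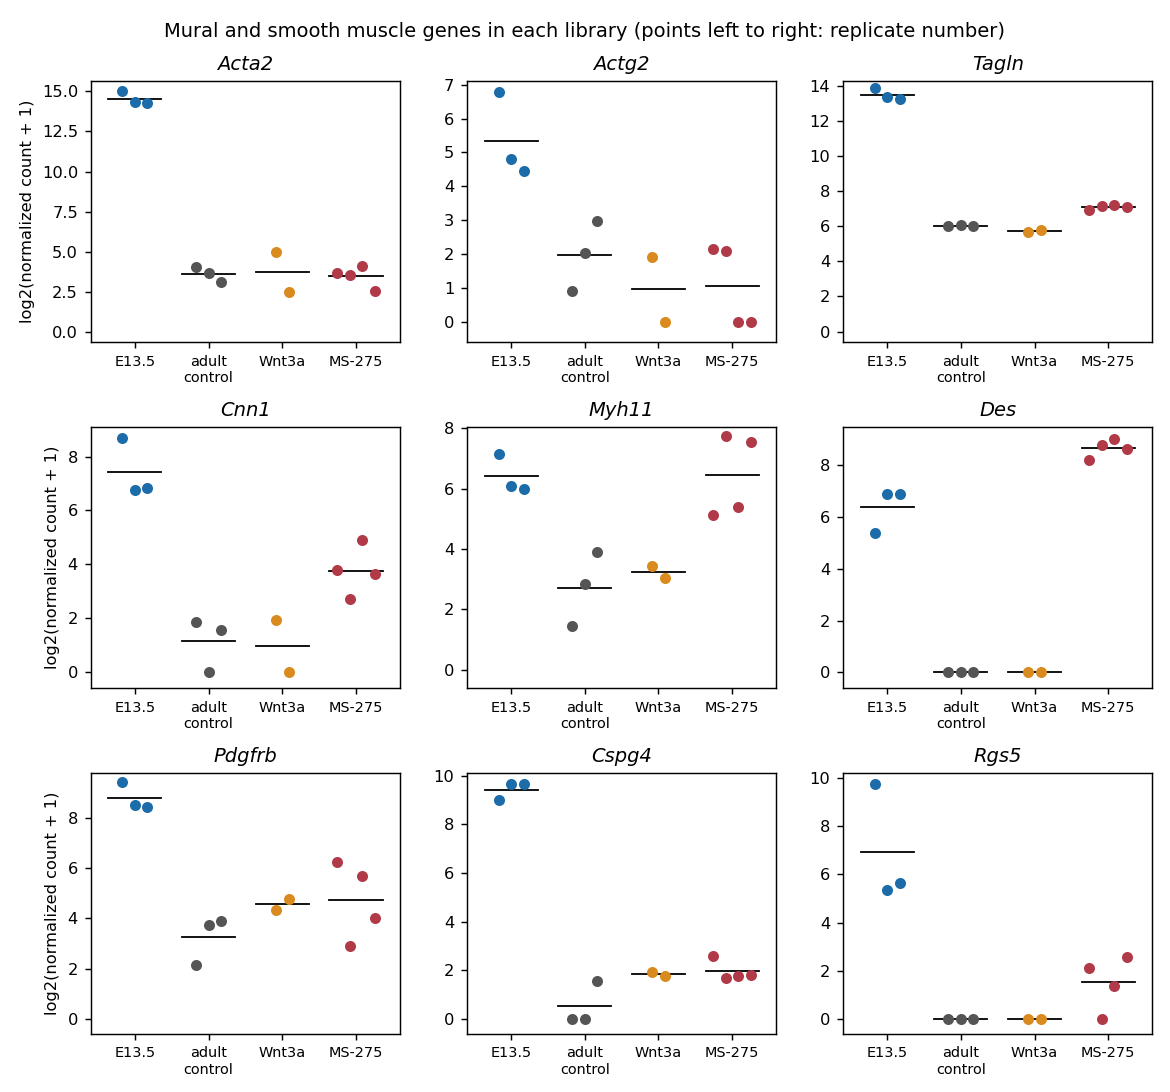
Each panel is 1 gene and each point 1 library, on a scale of log2(normalized count + 1), with the replicates of a group from left to right and a line at the group mean. Acta2, Tagln, Cspg4 and Rgs5 are high in E13.5 libraries alone, Des is at 0 in the 5 adult control and Wnt3a libraries and above the E13.5 points after MS-275, and Rgs5 in E13.5 rests mostly on replicate 1.

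The 3 E13.5 libraries did not hold the members in 1 proportion. Replicate 1 was higher than the mean of replicates 2 and 3 by 18.9-fold for Rgs5, 4.51-fold for Actg2, 3.71-fold for Cnn1, 2.17-fold for Myh11, 1.97-fold for Pdgfrb, 1.63-fold for Acta2 and 1.47-fold for Tagln. In contrast, it was lower for Des, where replicates 2 and 3 were 2.87-fold higher, and for Cspg4, where they were 1.55-fold higher. Pericyte genes thus parted, with Rgs5 and Pdgfrb on one side and Cspg4 on the other. In the same libraries the fibroblast and meninges list summed to 29806 in replicate 1 and to 12408 and 12239 in replicates 2 and 3, and the fibroblast collagen gene Col1a2 had 5883, 2158 and 2077. Pdgfra, a receptor of fibroblasts and of oligodendrocyte precursors chosen after its values were seen, had 2733, 206 and 189.9. The part of these cells in the levels of the members was not tested. Without E13.5 replicate 1, all 9 genes were still lower in adult controls, and the log2 fold change of Rgs5 moved from -6.91 to -5.51.

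Around the members, genes of the pericyte list were mostly lower in adult controls as well. Of 10 tested, 8 were lower and 1 higher, beside 32.8% lower and 19.5% higher of all genes tested. Their median log2 fold change was -5.76 beside -0.20 over all genes. A gene with no read in adult controls, such as Tbx18, could pass the filter only through other groups. It could not have been called higher in adult controls. The summed normalized count of the list ran the other way, from 4215 to 5615 in E13.5 and from 8676 to 23486 in adult controls, since most of it in adult controls was Mcam, which ECs also express, at 18080 ± 8295 against 1059 ± 93.7 (n = 3, adjusted p = 3.87e-05). Notch3, a receptor of mural cells, had 1894 ± 126 (n = 3) in E13.5 and 4.93 ± 8.54 (n = 3) in adult controls (adjusted p = 3.08e-06). Cd248 (endosialin) had 343 ± 288 and 0.578 ± 1.00, and Tbx18, a transcription factor of mural cells, 143 ± 106 and no read, and both were lower in adult controls (adjusted p = 1.52e-06 and 2.99e-06). However, not all markers of pericytes were there: Kcnj8, a potassium channel of brain pericytes, had no read in any of the 12 libraries, and its partner Abcc9 had at most 1.9 in any, both chosen after their values were seen. Both belong to the list of 16 genes, of which only 10 passed the filter on low values, and neither passed it.

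The contractile list, which leaves out the members, moved in both directions. Of its 18 genes tested, 9 were lower and 3 higher in adult controls, beside 32.8% lower and 19.5% higher of all genes, with a median log2 fold change of -1.04. Myl9, a myosin light chain of smooth muscle, had 1606 ± 603 (n = 3) in E13.5 while every adult library, control or treated, lacked reads of it (adjusted p = 5.22e-09 against adult control). Synpo2, a protein of actin bundles, had 870 ± 234 in E13.5 and 0.578 ± 1.00 in adult controls (adjusted p = 2.39e-08). Mylk, the kinase of the myosin light chain, was higher in adult controls, at 4253 ± 772 against 100.2 ± 38.9 (adjusted p = 1.03e-07). Of 18 regulators of smooth muscle genes, 8 were lower and 4 higher, with a median log2 fold change of -0.13 beside -0.20 over all genes. Of 19 ligands and receptors by which vessels recruit mural cells, 8 were lower and 6 higher. Among these, Tek, the endothelial receptor of angiopoietins, was higher in adult controls, and its ligand Angpt1, which mural cells make, was lower, at 149.8 ± 47.0 in E13.5 and no read in adult controls (adjusted p = 5.25e-07). Pdgfb, the ligand of the receptor that Pdgfrb encodes, had 847 ± 25.8 and 908 ± 145.

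Markers of most other cells were also lower in adult controls. Of 13 fibroblast and meninges genes tested, 11 were lower in adult controls, and of the oligodendrocyte lineage 6 of 9, of neural progenitors 10 of 12, of neurons 11 of 12 and of astrocytes 6 of 7. Of all genes tested, 32.8% were lower. No read was found in adult controls for 7 of 12 listed neural progenitor genes, 5 of 12 neuronal genes and 6 of 14 fibroblast and meninges genes. For oligodendrocyte lineage and astrocyte genes the counts were 3 of 12 and 2 of 8. A gene without reads there could pass the filter only through other groups, and could not be called higher in adult controls. Of 10 microglia and macrophage genes, 8 were lower and 1 higher, but their summed normalized count was higher in adult controls, from 7618 to 15055 against 884 to 1851 in E13.5, through Cd68, a lysosomal protein of macrophages, at 11578 ± 3765 against 946 ± 530.3 (n = 3, adjusted p = 1.53e-04). For Cspg4, which oligodendrocyte precursors also express, the values of Olig1 and Olig2, factors of that lineage, bear beside it: Olig1 had 2433 ± 405 (n = 3) and Olig2 1805 ± 67.0 (n = 3) in E13.5, and both had no read in adult controls. Sox10, a factor of the same lineage chosen after its values were seen, had at most 4.8 in any E13.5 library. The part of each cell type in the difference was not tested.

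**Figure D3:**
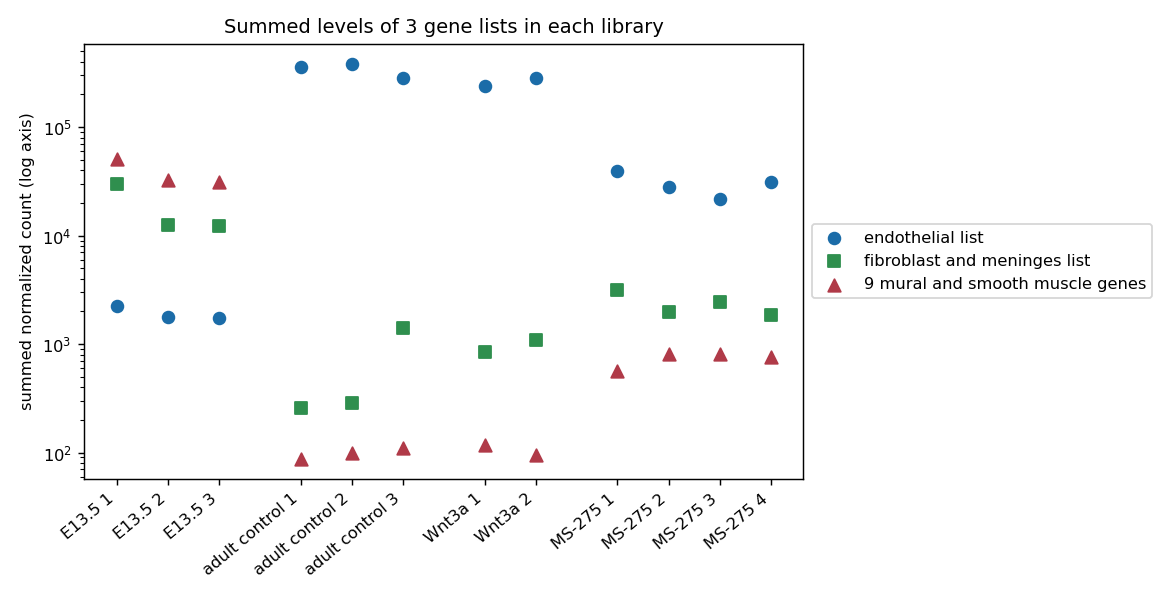
Points give, for each library, the summed normalized count on a log axis of 14 endothelial genes, 14 fibroblast and meninges genes and the 9 members. The members and the fibroblast list are highest in the 3 E13.5 libraries, where the endothelial list is lowest, and after MS-275 the endothelial list lies between its E13.5 and adult control levels.

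Wnt3a, given to ask whether the pathway alters adult ECs, was compared with adult control next. None of the 9 genes passed the test, as none of all 15452 did (0% by limma), with 1 member and 8.48% of all genes under an unadjusted p of 0.05. edgeR called 0 genes and DESeq2 41 of all genes. The libraries of the groups did not overlap for 3 members, beside 15.9% of all genes. Pdgfrb was 19.4 and 26.3 after Wnt3a, above the 3.47 to 13.8 of adult controls, with a log2 fold change of 1.30 (95% interval -0.68 to 3.29, adjusted p = 0.672). Tagln was 50.01 and 53.7 after Wnt3a, below each of the controls, with a log2 fold change of -0.31 (95% interval -0.79 to 0.17, adjusted p = 0.678). Cspg4, the 1 member under an unadjusted p of 0.05, rested on 4 reads after Wnt3a and 2 in controls, and its ratio of 4.05 had a counting interval of 0.580 to 44.7. Acta2 was 30.6 and 4.78 after Wnt3a, on both sides of the controls. Des and Rgs5 had no read in either group. How far the intervals reach differed between genes: that of Pdgfrb leaves room for a difference of several fold, and that of Tagln does not. Without adult control replicate 3, 1 member (Cspg4, log2 fold change 1.84, adjusted p = 0.0415) and 1454 of all genes passed, and without Wnt3a replicate 2, 237 genes and no member passed.

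MS-275 was given to ask what inhibition of class I HDACs does to gene expression in adult ECs. Against adult control, 5 of the 9 genes were higher, none was lower and 4 did not pass, while 30.3% of all genes tested were higher, 22.7% lower and 53.0% passed in either direction. The groups did not overlap for 5 members, beside 53.2% of all genes. The median log2 fold change was 1.46 over the members and 0.19 over all genes tested. A read was found on 15614 to 16720 genes in the MS-275 libraries and on 13948 to 14556 in adult controls. The higher genes were Des, Myh11, Cnn1, Cspg4 and Tagln. The actin genes Acta2 and Actg2 were not among them. Des and Rgs5 had no read in adult controls, Cspg4 had 2 and Cnn1 had 5. The first pair could not be called lower after MS-275, and Cspg4 and Cnn1 could hardly be. The same limit holds for any gene without reads in adult controls in the lists below.

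Des showed the largest difference. It had 299, 436, 525 and 393 in MS-275 replicates 1 to 4 and no read in the 3 adult controls, which gave a fold of at least 434 (adjusted p = 4.66e-07), and of at least 275 without adult control replicate 1. The 1708 reads over the 4 libraries make it the best counted of the members in this group, per kb 110.1 ± 25.1 (n = 4). It was higher under every alternative tried.

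Myh11 had 34.1, 211, 41.4 and 184 after MS-275 and 1.73, 6.10 and 13.8 in adult controls, a log2 fold change of 3.73 (SE 0.76, adjusted p = 0.00176). Its MS-275 libraries fell into a low pair, replicates 1 and 3, and a high pair, replicates 2 and 4, the same pairs that lay together over all genes. With replicates 1 and 3 left out the log2 fold change was 4.91, and with replicates 2 and 4 left out it was 2.55 (adjusted p = 5.19e-04 and 0.0171). Tagln rose evenly, with 119, 141, 147 and 136 after MS-275 against 63.3 to 66.1 in adult controls, a 2.10-fold difference (log2 fold change 1.06, SE 0.18, adjusted p = 6.14e-04). Pcsk7, which overlaps Tagln, was at 649.9 ± 44.5 (n = 4) after MS-275 beside 843 ± 199 (n = 3) in adult controls.

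The other 2 calls rested on few reads. Cnn1 had 12.8, 5.46, 29.2 and 11.4 after MS-275 and 2.60, 0 and 1.97 in adult controls, 65 reads against 5 (log2 fold change 2.62, SE 0.74, adjusted p = 0.0117). Among other alternatives, the call was lost without adult control replicate 2 (adjusted p = 0.0582), without MS-275 replicates 1 and 3 (0.0837) and with a pseudocount of 8 (0.0525). Cspg4 had 5.12, 2.19, 2.43 and 2.53 after MS-275 and 0, 0 and 1.97 in adult controls, 13 reads against 2, with a ratio of 4.98 and a counting interval of 1.13 to 45.4 (adjusted p = 0.0222). Its call was lost, among other alternatives, in edgeR (0.0530) and DESeq2 (0.0742), without adult control replicate 1 (0.0957) or 2 (0.0935), and without MS-275 replicate 1 (0.0543).

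Acta2 did not follow Tagln, its partner in the E13.5 libraries. It had 11.9, 10.9, 16.2 and 5.05 after MS-275, overlapping the 7.89 to 15.6 of adult controls, and a log2 fold change of -0.15 (95% interval -1.37 to 1.07, adjusted p = 0.843). Actg2 had 3.41, 3.28, 0 and 0, 7 reads in 4 libraries, and a log2 fold change of -0.91 (95% interval -2.76 to 0.95, adjusted p = 0.389). With quantile normalization both passed as lower after MS-275 (adjusted p = 0.0344 for Acta2 and 0.0311 for Actg2).

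Of the pericyte genes, Pdgfrb had 75.1, 6.56, 50.3 and 15.2 after MS-275 and overlapped adult controls through replicate 2, with a log2 fold change of 1.46 (95% interval -0.20 to 3.12, adjusted p = 0.126). Here replicates 1 and 3 were the high pair, the reverse of Myh11. The gene passed as higher without MS-275 replicate 2 (log2 fold change 2.06, adjusted p = 0.0246), without replicates 2 and 4 (2.71, 0.00577) and in DESeq2 (1.92, 0.0204). Rgs5 had 3.41, 0, 1.62 and 5.05, 10 reads in all, and did not pass (adjusted p = 0.205). Its mean was 2.65-fold the level of the 3 reads that a count of 0 allows, and 1.68-fold without adult control replicate 1. That ratio leaves out the error of the 10 reads, so it is no lower limit. The 95% interval of the log2 fold change was -0.59 to 3.66.

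Around the members, the regulators and the contractile list gave calls in both directions after MS-275. Of 18 regulators, 5 were higher and 2 lower, a share of higher calls near the 30.3% of all genes, with a median log2 fold change of 0.21 beside 0.19 over all genes. Myocd, the gene of myocardin, had 11.3 ± 5.59 (n = 4) after MS-275 and no read in adult controls (adjusted p = 7.11e-05), and Hey2, a Notch target in vessels, had 117 ± 33.5 and 0.657 ± 1.14 (adjusted p = 3.57e-06). Of 18 contractile genes, 2 were higher and 6 lower, beside 30.3% and 22.7% of all genes, with a median of -0.20. The lists were not tested against each other. Synpo2 was higher, at 295 ± 20.8 against 0.578 ± 1.00 (adjusted p = 5.23e-07), while Mylk and Smtn (smoothelin) were lower, at 847 ± 163 and 767 ± 35.8 against 4253 ± 772 and 3542 ± 675 (adjusted p = 6.78e-05 and 1.54e-05). Myl9 had no read in any MS-275 library. Of 10 pericyte genes, 2 were higher, Notch3 and Cd248, and 1 lower, Mcam.

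The families of the members gave further values. Of all genes tested, 30.3% were higher after MS-275 and 22.7% lower. Of 5 other myosin heavy chains tested, 3 were higher after MS-275 and none lower, with a median of 2.95. Of the 10 listed, 6 had no read in adult controls, and such a gene could not be called lower. Myh14, a nonmuscle myosin, had 289.6 ± 132 (n = 4) against 0.657 ± 1.14 (n = 3), and Myh3, an embryonic skeletal myosin, 81.7 ± 24.7 against 0.657 ± 1.14. Of 8 other intermediate filaments, 2 were higher and 3 lower: Synm (synemin), a partner of desmin, was higher, at 627 ± 49.0 against 74.6 ± 46.9 (adjusted p = 2.45e-05), and Vim (vimentin) lower, at 49147 ± 4861 against 121419 ± 25674 (adjusted p = 9.38e-05). Cnn2 was higher (log2 fold change 0.75) and Cnn3 lower (-0.54). Of 6 other members of the Rgs5 family, 2 were higher and 1 lower.

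Markers of other cells moved with this comparison as well. Of 14 endothelial genes, 13 were lower after MS-275 and 1 higher, while of all genes tested 22.7% were lower and 30.3% higher. Of 13 fibroblast and meninges genes, 6 were higher and 1 lower, with a median log2 fold change of 2.41 and a sum of 1860 to 3158 against 258.5 to 1396 in adult controls. Col6a1, a collagen chain, had 635 ± 211 (n = 4) against 0.657 ± 1.14, while Col1a2 had 11.7 ± 6.25 and no read. Of 12 neuronal genes, 6 were higher and 1 lower. In adult controls 6 of 14 listed fibroblast and meninges genes and 5 of 12 neuronal genes had no read. Such a gene could not be called lower after MS-275. The summed normalized counts of other lists were lower after MS-275: astrocyte genes had 1807 to 2435 against 3899 to 5190 in adult controls, neural progenitor genes 48082 to 61025 against 110846 to 153666, and oligodendrocyte lineage genes at most 1427 against at least 1712. In adult controls most of each sum was 1 gene: Gja1 at 4703 ± 771, Vim at 121419 ± 25674 and Cnp at 1413 ± 30.9 (n = 3 each). Gja1 and Cnp were chosen after their values were seen. By gene, 1 astrocyte, 1 neural progenitor and 2 oligodendrocyte lineage genes were lower, and 2, 1 and 2 were higher. Olig2 and Sox2 had no read in any MS-275 library. The part of other cells in the higher levels of Des, Myh11 and Tagln was not tested.

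**Figure D4:**
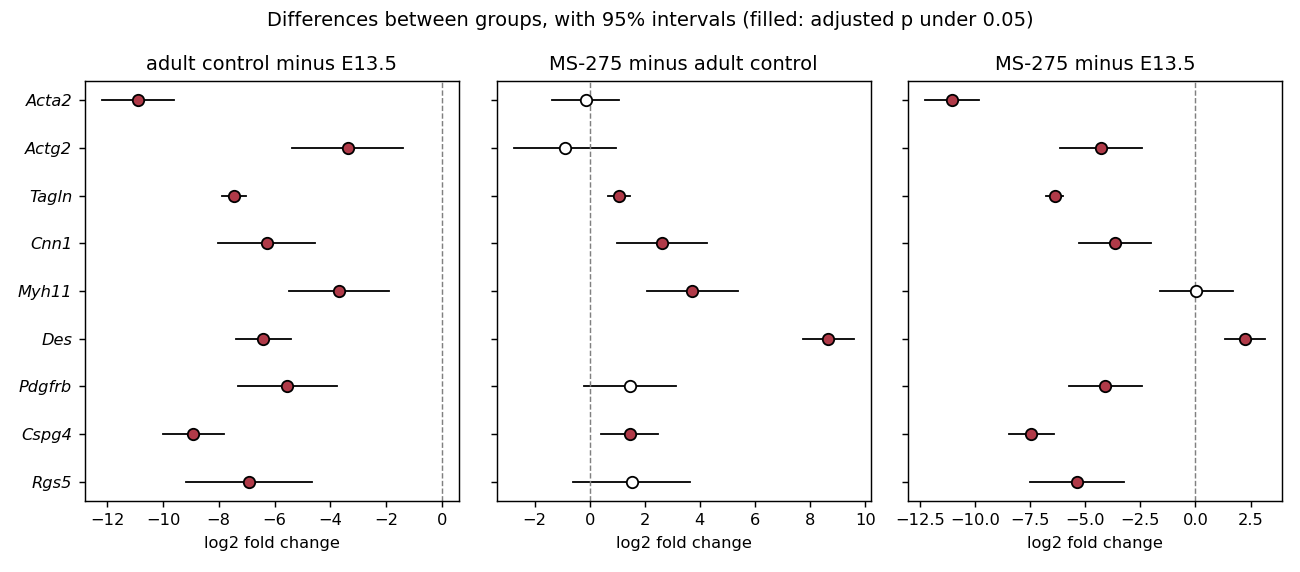
Points give the log2 fold change of each gene in 3 comparisons and lines its 95% interval, with filled points for an adjusted p under 0.05. All 9 genes lie left of 0 for adult control minus E13.5, Des lies right of 0 in both comparisons with MS-275, and Acta2 lies at -10.89 for adult control and -11.04 for MS-275 against E13.5.

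Set against E13.5, cells given MS-275 had 1 member higher and 7 lower, with 1 that did not pass, while 27.2% of all genes tested were higher and 36.1% lower. The groups did not overlap for 8 members, beside 69.9% of all genes, of which 63.3% passed in either direction. Both comparisons with E13.5 use the same 3 E13.5 libraries, and this one also uses the MS-275 libraries described above. Des was 4.59-fold higher after MS-275 than in E13.5 (log2 fold change 2.26, SE 0.42, adjusted p = 6.46e-04), and each MS-275 library, from 299 to 525, lay above each E13.5 library, from 41.3 to 119. Myh11 was at 118 ± 93.0 (n = 4) and 90.1 ± 43.8 (n = 3), with overlapping libraries and a log2 fold change of 0.04 (95% interval -1.62 to 1.71, adjusted p = 0.968). That value averages 2 opposite pairs: MS-275 replicates 2 and 4 (211 and 184) lay above every E13.5 library and replicates 1 and 3 (34.1 and 41.4) below every one. The log2 fold change of Myh11 was 1.22 without replicates 1 and 3 and -1.14 without replicates 2 and 4, and neither passed (adjusted p = 0.155 and 0.191). Tagln, though higher than in adult controls, was at 1.16% of its E13.5 level, Cnn1 at 7.02%, Pdgfrb at 7.84%, Rgs5 at 0.808%, Cspg4 at 0.436% and Acta2 at 0.0452%. These 6 genes and Actg2 were lower after MS-275 (adjusted p from 1.61e-09 to 0.00121). Among them Actg2, Cspg4 and Rgs5 passed the filter on low values only through the E13.5 libraries. Such genes could hardly have been called higher after MS-275.

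Between the 2 treatments, 4 members were higher after MS-275 than after Wnt3a and none lower, while 23.6% of all genes tested were higher, 18.7% lower and 42.3% passed in either direction. The groups did not overlap for 4 members, beside 54.9% of all genes. Des and Rgs5 had no read after Wnt3a, so neither could be called lower after MS-275. Des was at least 215-fold higher, since no read was found in either Wnt3a library, and at least 99.1-fold without Wnt3a replicate 2 or 115-fold without replicate 1. Tagln was 2.60-fold higher (adjusted p = 4.18e-04), Myh11 12.5-fold (adjusted p = 0.0112) and Cnn1 12.3-fold, the last with 65 reads against 2 and a counting interval of 3.27 to 104. Among other alternatives, the calls of Cnn1 and Myh11 were lost without Wnt3a replicate 2 (adjusted p = 0.196 and 0.0707) and with quantile normalization (0.122 and 0.0547). That of Cnn1 was also lost in edgeR (0.0584) and without MS-275 replicates 1 and 3 (0.0964), and that of Myh11 without MS-275 replicates 2 and 4 (0.0678).

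Across groups, the members had 3 orders of level. Acta2, Tagln, Cspg4, Cnn1, Pdgfrb, Rgs5 and Actg2 were highest in E13.5, and after it Tagln and Cnn1 were higher after MS-275 than in the other 2 groups. Between those, Cnn1 overlapped, while both Wnt3a libraries lay below each control for Tagln without passing the test. For Acta2, Actg2 and Rgs5 no difference among the 3 adult groups passed by limma, apart from the quantile-normalized values of Acta2 and Actg2 given above, and Rgs5 had 10 reads after MS-275 and none in the other adult groups. For Pdgfrb none of their differences passed by limma with all 12 libraries, though both Wnt3a libraries lay above each control. As given above, it passed as higher after MS-275 than in adult control in DESeq2. It also passed in limma without MS-275 replicate 2, or without replicates 2 and 4. Cspg4 differed between MS-275 and adult control on 13 and 2 reads only. Myh11 did not pass between E13.5 and MS-275, where its libraries fell on both sides of the E13.5 levels, and was low in adult control and Wnt3a. Des was highest after MS-275, then in E13.5, with no read elsewhere.

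Over the 12 libraries, the genes whose log2 levels were most like each member are given as a description, with Pearson's r. The points share the 4 groups, so a gene with the same group means has a high r. Acta2 was most like Rgs8 (r = 0.995) and Sorcs1, and 774 genes had an r over 0.95 with it. For Tagln 915 genes had an r over 0.95, Fam189b (0.996) among them, and Cspg4 was most like Gprasp2 (0.995) and Fbn2, with 824. Fewer genes followed the others: 157 genes had an r over 0.95 with Des, led by 1700029I15Rik (0.995) and Galnt10, 55 with Cnn1, led by Ctnnal1 (0.976) and Grin3a, 28 with Rgs5, led by Slc38a4 (0.983) and Penk, 21 with Pdgfrb, led by Lsamp (0.967) and Plxnb2, and 12 with Myh11, led by Ccdc96 (0.976) and Prkci. No gene passed 0.95 with Actg2, for which Arsj (0.929) and Aard came closest.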

How the data were processed

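According to the study's methods and the submitters' processing notes, the authors used FastQC for quality, cutadapt for trimming and STAR for alignment to mm10. Genes were the protein-coding ones of GENCODE M23, and reads on them were counted by in-house scripts according to the methods and by featureCounts according to the notes. The sources used here give neither versions nor the strand setting. The signal values as deposited are counts that the authors divided by DESeq2 size factors. Multiplied back, 100.0% lay within 0.01 of a whole read. All 12 columns were used, and 26 names turned into dates and 1 gene with a missing value were dropped.

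On a scale of log2(value + 1), limma 3.58.1 under R 4.3.3 was run (variance trend, robust, group only, all 12 libraries) on the 15452 genes that reached a value of 10 in 2 or more libraries, and p-values were adjusted over all of them by Benjamini-Hochberg for each comparison. Intervals are 95%. Ratios of reads have exact counting intervals, which cover counting error only, and a count of 0 allows 3 reads over a group. Folds given as at least a value take the mean of the other group without its error. Recovered reads were tested with edgeR 4.0.16 and DESeq2 1.42.0 as alternatives, and the fits were tested on simulated data. Other alternatives were 2 pseudocounts, 2 filters, equal totals, quantile normalization, only the 2 groups compared, a replicate block, averaging of alike libraries and leaving out each library. Added after seeing the data were blocks for library sets and leaving out MS-275 replicates 1 and 3, or 2 and 4. Positions and exon lengths are from GENCODE M21 on mm10, and the 17 gene lists leave out the members. The genes named are the 9 members, per list up to 4 with the smallest adjusted p in the comparisons of adult control with E13.5 and of MS-275 with adult control, and the 2 most alike genes per member. One gene of the last kind is not reported here. Genes named beyond this rule are said to be chosen after their values were seen, and Pcsk7 is named for its overlap with Tagln. The members and lists were chosen with earlier results of these data known. The labels call the libraries of a group biological replicates and do not say whether they came from separate cultures, so p-values measure only the spread between these libraries, which may be technical. The titles spell the inhibitor MS-257 and the treatment field MS-275. The titles of MS-275 replicates 2, 3 and 4 all carry the number 2 beside their replicate number, the methods count 2 MS-275 replicates, and all 4 libraries were used.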

Additional observations from a re-analysis of the deposited data

Results flagged for a closer look

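In the MS-275 group, the highest Cspg4 library, replicate 1, lay far from the other 3: its gap to the nearest of them was 0.884 of the whole range of the group. It had a normalized count of 5.12, against 2.19, 2.43 and 2.53 in replicates 2, 3 and 4. By chance about 1 group in 20 would be singled out in this way.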

How the results depend on the processing

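Over the members' single log2 fold changes and all alternatives, 806 values kept their side of the threshold and their direction, 28 lost the call, 6 gained one and none reversed. The 9 members lower in adult controls than in E13.5 stayed 9 when any 1 library was left out; with quantile normalization 7 remained called, since Actg2 (-0.53, adjusted p = 0.639) and Myh11 (-1.08, adjusted p = 0.303) did not pass. DESeq2 called 8 of these 9, and 6 of the 7 lower after MS-275 than in E13.5, because it gave Rgs5 no adjusted p, a value left out of the lost calls. The 5 members higher after MS-275 than in adult controls became 3 with a pseudocount of 8, with quantile normalization, with alike libraries averaged and without MS-275 replicates 1 and 3, and 3 to 6 with 1 library left out, and quantile normalization gave 2 lower. After MS-275 against Wnt3a, the 4 higher became 2 with quantile normalization and 2 to 4 with 1 library left out. Members higher after Wnt3a were 0 to 1 with 1 library left out. Over all genes, averaging alike libraries, which leaves fewer samples, gave 4911 calls for adult control against E13.5, 4011 for MS-275 against adult control, 6197 for MS-275 against E13.5 and 3478 for MS-275 against Wnt3a, and Wnt3a against adult control gave 7 with quantile normalization, 41 with DESeq2 and 0 to 1454 with 1 library left out. Quantile normalization moved the median of all genes by 0.27 for adult control against E13.5 and by 0.33 for MS-275 against E13.5, and the share of calls that were higher went from 37.3% to 53.1% and from 43.0% to 55.6%; with equal totals the first moved by -0.13. The replicate numbers did not pair adult control with MS-275 (the correlations of same-numbered deviations were 0.28, -0.24 and -0.30) or with Wnt3a (0.44 and -0.44). Same-numbered deviations of Wnt3a and MS-275 did go together (0.363 for replicate 1 and 0.365 for replicate 2). Wnt3a replicate 1 went as closely with MS-275 replicate 3 (0.366), and Wnt3a replicate 2 with MS-275 replicate 4 (0.355). With the replicate number as a block, 4 members were higher after MS-275 than in adult controls (Cspg4 lost, adjusted p = 0.0511), 3 after MS-275 than after Wnt3a (Myh11 lost, adjusted p = 0.0501), and 9 were lower in adult controls than in E13.5. The few reads of Actg2, Cspg4 and Rgs5 in the adult groups, 13 at most in any group, limit what these libraries can show.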

Other observations

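Genes of striated muscle were drawn up beside the members as muscle genes of another kind. Of 15 tested, 6 were higher and 1 lower after MS-275 than in adult controls, beside 30.3% and 22.7% of all genes. Their median log2 fold change was 1.17 beside 0.19 over all genes. Of the 22 listed, 10 had no read in adult controls, and such a gene could not be called lower after MS-275. In adult controls, 5 of the 15 were lower and 4 higher than in E13.5, beside 32.8% and 19.5% of all genes. Mylpf, a light chain of fast skeletal muscle, had 253.5 ± 65.8 (n = 4) after MS-275 and 56.8 ± 15.0 (n = 3) in adult controls (adjusted p = 1.78e-04), and Tnnt3, a skeletal troponin, had 16.8 ± 7.02 and no read (adjusted p = 3.25e-04). Myod1, the transcription factor of skeletal muscle, had 179 ± 91.5 (n = 3) in E13.5 and no read in adult controls (adjusted p = 2.50e-06). Their summed normalized count stayed between 302.9 and 810.1 in all 12 libraries.

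Of 19 ligands and receptors of mural cell recruitment, 8 were lower and 3 higher after MS-275 than in adult controls, beside 22.7% lower and 30.3% higher of all genes. Pdgfb, which ECs make to recruit pericytes, had 71.4 ± 37.6 (n = 4) against 908 ± 145 (n = 3), S1pr1, a sphingosine receptor of ECs, 795 ± 406 against 25622 ± 8330, and Tek 68.1 ± 41.8 against 4458 ± 1803, each lower after MS-275 (adjusted p = 5.12e-05, 3.33e-06 and 5.08e-06).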
